A study of Bos taurus with 8 samples.

Results

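The caseins and whey proteins of bovine milk were followed through their probes on a gene expression array. The 7 genes are the caseins CSN1S1 (alpha-S1), CSN1S2 (alpha-S2), CSN2 (beta) and CSN3 (kappa), the whey proteins LALBA (alpha-lactalbumin) and PAEP (beta-lactoglobulin), and GLYCAM1, a mucin-like glycoprotein of whey and the milk fat globule. They were found by gene name in the scanner files, where PAEP is also written LGB. This gave 26 probes for 7 of the 17307 genes that could be named on the array: 6 probes for CSN1S1, 5 each for CSN1S2 and CSN2, 3 each for LALBA and PAEP, and 2 each for CSN3 and GLYCAM1.

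The RNA came from primary bovine mammary epithelial cells, grown out of udder tissue of 1 lactating Holstein cow and used at the fifth passage. There were 3 arrays of cells with the EEF1D-1357 short hairpin RNA (shRNA), 3 with the EEF1D-1893 shRNA and 2 of control cells, labelled as without shRNA. Both hairpins are named for EEF1D, the gene of the delta subunit of elongation factor 1, which works in translation. A non-targeting hairpin is not among the labelled treatments. The labels also do not say whether replicates were separate cultures, so a p-value here covers the spread among the arrays alone, which may be technical. Per array, 60.6% to 71.5% of probes were well above background, the scanner software's flag for a signal well clear of the spot's background. The 75th percentile of the processed signal lay between 1597 and 2078 intensity units on 7 arrays and at 1265 on control replicate 1. Each array's log2 signal was reduced by that percentile, which gives the scaled log2 signal used below. The brightest EEF1D probe stood at 5.98, 5.87 and 5.10 with EEF1D-1357, at 6.0, 5.75 and 5.78 with EEF1D-1893 and at 7.13 and 6.15 in the controls. On this probe all 6 shRNA arrays were below both controls, a separation of groups found in 16.8% of all genes tested, in either direction, and the fitted level was 53.9% of control (log2 -0.89, SE 0.32, adjusted p = 0.246 in limma). On 2 of the other 3 EEF1D probes, A_73_P159712 and A_73_P265551, at least 1 shRNA array was above control replicate 2. Of all named genes, 63.1% were well above background on all 8 arrays. Luminal epithelial markers were so for 14 of 18 genes (KRT8, KRT18 and EPCAM among them). The luminal markers ESR1, PGR and KIT were well above background on 0 arrays and ELF5 on 1. Basal and myoepithelial markers were well above background on all 8 arrays for 10 of 12 genes (KRT5, KRT14 and TP63 among them). The same was seen for 4 of 11 fibroblast, 1 of 9 endothelial, 1 of 7 adipocyte and 9 of 12 leukocyte markers. CD3E and CD8A were well above background on 0 arrays, while PTPRC, which encodes CD45, was on all 8. In bulk RNA, fewer cells of a type and less RNA per cell cannot be told apart.

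Caseins carry calcium phosphate in micelles, and kappa-casein coats and stabilises the micelle surface. Alpha-lactalbumin is the regulatory subunit of lactose synthase, and beta-lactoglobulin is the main whey protein of cattle, a lipocalin that binds small hydrophobic molecules. In the lactating gland these genes are among the most abundant transcripts. Prolactin, acting through its receptor PRLR, the kinase JAK2 and the factor STAT5, induces them together with glucocorticoids and contact with the basement membrane, and their expression commonly falls when mammary cells are grown on plastic. The 4 casein genes lie in one cluster. In the Btau_3.1 coordinates of the scanner files their probes lay on chromosome 6, in the order CSN1S1 (88300947 to 88309061), CSN2 (88329295 to 88332577), CSN1S2 (88421964 to 88427455) and CSN3 (88532352 to 88534393). The CSN2 probes were on the minus strand and those of the other 3 caseins on the plus strand. PAEP probes lay on chromosome 11 (107168553 to 107171436), and LALBA and GLYCAM1 probes on chromosome 5. No exon annotation of this build was used.

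The following probe sequences are shown because probes for the same transcript gave opposite readings. CSN2 probe A_73_116854 was bright on every array and its neighbour A_73_P311621 was at background on every array, although they share 38 bases. The first 30 bases of A_73_116854 (transcript positions 749 to 778) hold, in capitals, the 22 bases that lie in both bright CSN2 probes and not in the dark neighbour. The dark neighbour lies in 60 contiguous genome bases, whereas the 60 bases of A_73_116854 span 790 genome bases (chr6:88329317-88330106, minus strand), so the bright probe crosses a splice junction. For PAEP, the last 30 bases of the bright probe A_73_P459006 (transcript positions 754 to 783; the whole probe lies at chr11:107171376-107171436, plus strand) hold the hexamer AATAAA, in capitals, the letters of the polyadenylation signal.
CSN2 A_73_116854, start: AATGCCCCCTCCTCACTTTTGAattgactg
PAEP A_73_P459006, end: ttcagcAATAAAggcataaacctgaaaaaa
AATAAA, the 1 motif searched, was in 9.35% of the 43653 probes on the probe strand and in 12.5% on either strand. The PAEP probe is also 1 of 436 probes that end in 6 A bases. Of these 436, 69.7% were well above background on all 8 arrays, against 58.4% of all probes. With probes of other genes, A_73_116854 shared a run of at most 13 bases and A_73_P459006 one of at most 14.

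Further upstream in the same transcripts, these 4 probes from within the transcript body were at or near background, 2 of them on all 8 arrays (CSN2 A_73_P102986 and PAEP A_73_115729) and the other 2 on 6 arrays. They cover transcript positions 200 to 259 and 442 to 501 of CSN2 and 307 to 366 and 379 to 438 of PAEP.
CSN2 A_73_P102986: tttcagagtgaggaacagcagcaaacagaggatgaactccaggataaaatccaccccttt
CSN2 A_73_P045606: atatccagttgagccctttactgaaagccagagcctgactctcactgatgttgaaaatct
PAEP A_73_P411496: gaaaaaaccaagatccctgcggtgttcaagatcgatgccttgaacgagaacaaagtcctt
PAEP A_73_115729: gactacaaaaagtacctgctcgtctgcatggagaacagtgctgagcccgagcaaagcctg

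Most of the milk protein probes were not well above background in these cells. Of the 26 probes, 18 (69.2%) were well above background on no array, against 22.5% of all 43653 probes, and 3 (11.5%) on all 8 arrays, against 58.4%. The other 5 (19.2%, against 19.1% of all probes) were well above background on 1 to 3 arrays. Every probe of CSN1S2, LALBA and GLYCAM1 was dark on every array, as were 5 of the 6 for CSN1S1 (dark meaning not well above background). The processed signals of the 18 dark probes ran from 4.44 to 18.1 intensity units with a median of 8.96. On the same arrays, the lowest signal of any probe well above background was between 21.9 and 64.6. The dark probes cover stretches far apart in their transcripts, such as CSN1S1 positions 404 to 463 and 1065 to 1124. One further probe, described in the files as an alpha-S1 casein sequence but not named for the gene, was also dark on all 8 arrays, with a highest signal of 13.7. The 3 LALBA probes, 1 of which lies on the strand opposite to the other 2 in the files' coordinates, peaked at 13.3, 16.4 and 13.1.

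**Figure D1:**
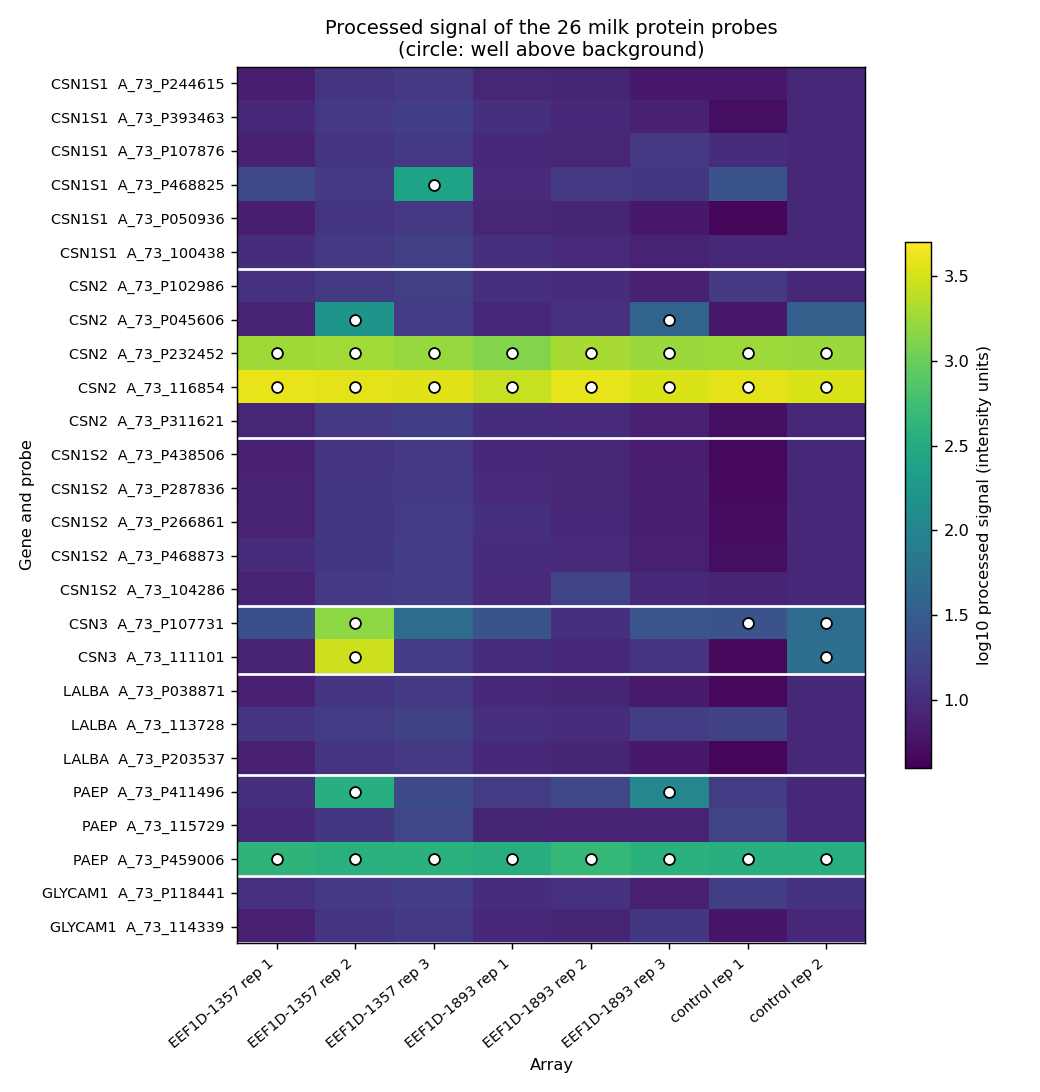
Processed signal of each of the 26 probes (rows, grouped by gene, caseins in chromosome order) on the 8 arrays (columns), coloured on a log10 scale of intensity units; circles mark spots well above background. The 3 rows bright on every array are 2 CSN2 probes and 1 PAEP probe, 18 rows carry no circle, and EEF1D-1357 replicate 2 carries 7 circles, the most of any array.

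Counted by array, the milk protein probes well above background were 3, 7 and 4 with EEF1D-1357, 3, 3 and 5 with EEF1D-1893, and 4 and 5 in the controls. The groups overlap, and 3 of these probes are the same on every array. The 7 on EEF1D-1357 replicate 2 came from CSN2, CSN3 and PAEP. Taking the best probe of each gene, 2 of the 7 genes were well above background on all 8 arrays (28.6%, against 63.1% of all named genes) and 3 on none (42.9%, against 18.1%).

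CSN2, the beta-casein gene, read bright on all 8 arrays with 2 overlapping probes offset by 7 bases, at transcript positions 742 to 801 and 749 to 808. The processed signal of A_73_116854 was 3984, 3788 and 3620 intensity units with EEF1D-1357, 2733, 3816 and 3352 with EEF1D-1893, and 3714 and 3374 in the controls. The lowest and the highest array differed by 1.46 times, and both controls lay inside the range of the shRNA arrays. The second bright probe, A_73_P232452 (chr6:88329324-88330113), read 1797, 1847 and 1669, then 1339, 1968 and 1693, then 1759 and 1713, with EEF1D-1893 replicate 1 again lowest.

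The order of the arrays changed once each signal was scaled. The scaled log2 signal of A_73_116854 was 0.95, 0.87 and 0.86 with EEF1D-1357, 0.78, 0.92 and 0.78 with EEF1D-1893, and 1.55 and 0.87 in the controls, or 0.89 ± 0.05 (SD, n = 3), 0.82 ± 0.08 (SD, n = 3) and 1.21 ± 0.48 (SD, n = 2). Control replicate 1 stood 0.60 above the next array, while control replicate 2 lay among the shRNA arrays. Relative to the array's 75th percentile, CSN2 was 2.94 in control replicate 1 and 1.71 to 1.93 on the other 7 arrays. In unscaled signal, 4 arrays were below control replicate 1 and 3 were above it. That array had the highest scaled value of the 8 in 39.3% of the 12892 genes tested, so its place at the top is shared with many genes. The overlapping probe A_73_P232452 followed the same course, with scaled values of 0.47 in control replicate 1 and -0.25 to -0.03 on the other 7 arrays.

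**Figure D2:**
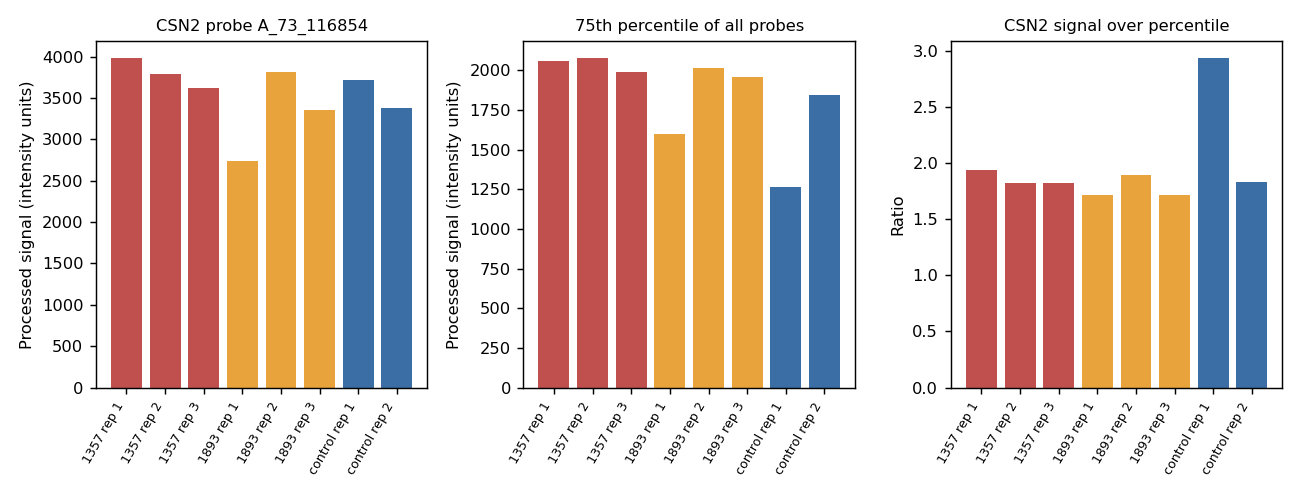
Bars from 0 give, per array, the processed signal of CSN2 probe A_73_116854 (left), the 75th percentile of the processed signal over all probes (middle), both in intensity units, and their ratio (right); red is EEF1D-1357, orange EEF1D-1893 and blue control. Control replicate 1 has an ordinary CSN2 signal of 3714, the lowest percentile (1265) and the highest ratio (2.94).

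The other 3 CSN2 probes did not share this signal. A_73_P102986, early in the transcript, peaked at 15.3 intensity units. A_73_P311621, at transcript positions 771 to 830 and sharing 38 bases with the bright A_73_116854, peaked at 14.9. A_73_P045606, at transcript positions 442 to 501 (chr6:88330955-88331014), read 8.03, 161 and 13.6 with EEF1D-1357, 9.14, 11.1 and 39.8 with EEF1D-1893, and 6.27 and 34.2 in the controls. It was well above background on EEF1D-1357 replicate 2 and EEF1D-1893 replicate 3 only. What the bright CSN2 probes bound was not tested. Of the 3946 genes with at least 3 probes of which 1 was well above background on all 8 arrays, 16.1% also had a probe that was so on none, and CSN2 and PAEP are both of this kind.

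PAEP, the beta-lactoglobulin gene, was read on all 8 arrays only by A_73_P459006, the probe at the transcript's end. What this probe bound was not tested. Its processed signal was 409, 373 and 380 intensity units with EEF1D-1357, 339, 459 and 376 with EEF1D-1893, and 353 and 352 in the controls. The lowest and highest arrays differed by 1.36 times and the groups overlapped. Scaled, it was -2.33, -2.48 and -2.39, then -2.24, -2.13 and -2.38, then -1.84 and -2.39 in the controls, with control replicate 1 again highest, 0.29 above the next array. The group means were -2.40 ± 0.07 (SD, n = 3), -2.25 ± 0.12 (SD, n = 3) and -2.11 ± 0.39 (SD, n = 2).

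PAEP A_73_P411496, from the middle of the transcript (chr11:107168553-107169732), gave another picture. It read 10.8, 360 and 21.1 intensity units with EEF1D-1357, 13.6, 18.3 and 107 with EEF1D-1893, and 14.1 and 8.96 in the controls. EEF1D-1357 replicate 2 was the highest and EEF1D-1893 replicate 3 the next, a factor of 3.15 apart once scaled, and only these were well above background, the same arrays on which CSN2 A_73_P045606 was. PAEP A_73_115729, 13 genome bases further on, stayed at or below 18.1 on every array.

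CSN3, the kappa-casein gene, stood out on a single array. Its probe A_73_P107731 spans the end of the coding sequence (transcript positions 595 to 654, chr6:88532352-88532411, plus strand), and is shown with the stop codon of its reading frame in capitals because both CSN3 probes gave the largest single-array signals among the milk protein genes.
CSN3 A_73_P107731: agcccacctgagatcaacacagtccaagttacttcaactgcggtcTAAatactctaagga
The processed signal of this probe was 22.6, 1501 and 49.1 intensity units with EEF1D-1357, 25.5, 10.8 and 26.2 with EEF1D-1893, and 24.4 and 47.9 in the controls. EEF1D-1357 replicate 2 lay far above the other 7 arrays, 27.8-fold above the next once scaled, and both controls were also well above background. The level at which a spot is flagged differed between arrays. The lowest signal well above background of any probe was 21.9 on control replicate 1 and 44.7 on control replicate 2. It was 64.6 on EEF1D-1357 replicate 3, 41.6 on EEF1D-1893 replicate 1 and 30.7 on EEF1D-1893 replicate 3. Those 3 arrays, at 49.1, 25.5 and 26.2, read above the 24.4 of control replicate 1 without being flagged. The second probe, A_73_111101 (positions 713 to 772, chr6:88534334-88534393), read 8.04, 2890 and 13.8, then 10.2, 8.82 and 11.8, then 4.82 and 54.0. It showed the same single bright array, 47.4-fold above control replicate 2, the 1 other array on which it was well above background. The 2 probes lie apart on the array, in grid rows 364 and 71 of 532, and neither was flagged as an outlier. The other 2 EEF1D-1357 arrays were not well above background with either probe.

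CSN1S1, the alpha-S1 casein gene, had a single lit spot. A_73_P468825 (positions 676 to 735, chr6:88307237-88307296, plus strand), shown because it was the 1 of 6 CSN1S1 probes well above background on any array, read 19.2, 12.9 and 248 intensity units with EEF1D-1357, 9.41, 13.4 and 12.7 with EEF1D-1893, and 24.4 and 8.96 in the controls.
CSN1S1 A_73_P468825: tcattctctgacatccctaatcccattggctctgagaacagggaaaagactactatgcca
EEF1D-1357 replicate 3 was the 1 array on which it was well above background. A_73_P050936, which overlaps the end of this probe on the transcript (positions 720 to 779), read at most 13.0.

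Signals bright on 1 array were found across the array set. Between 26 and 266 probes per array were well above background and over 4-fold above every other array. EEF1D-1357 replicate 2 had 176 such probes, of which 107 belonged to genes with several probes, and in 2 of those genes (CSN3 is one) a second probe did the same. EEF1D-1357 replicate 3 had 163, CSN1S1 A_73_P468825 among them.

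**Figure D3:**
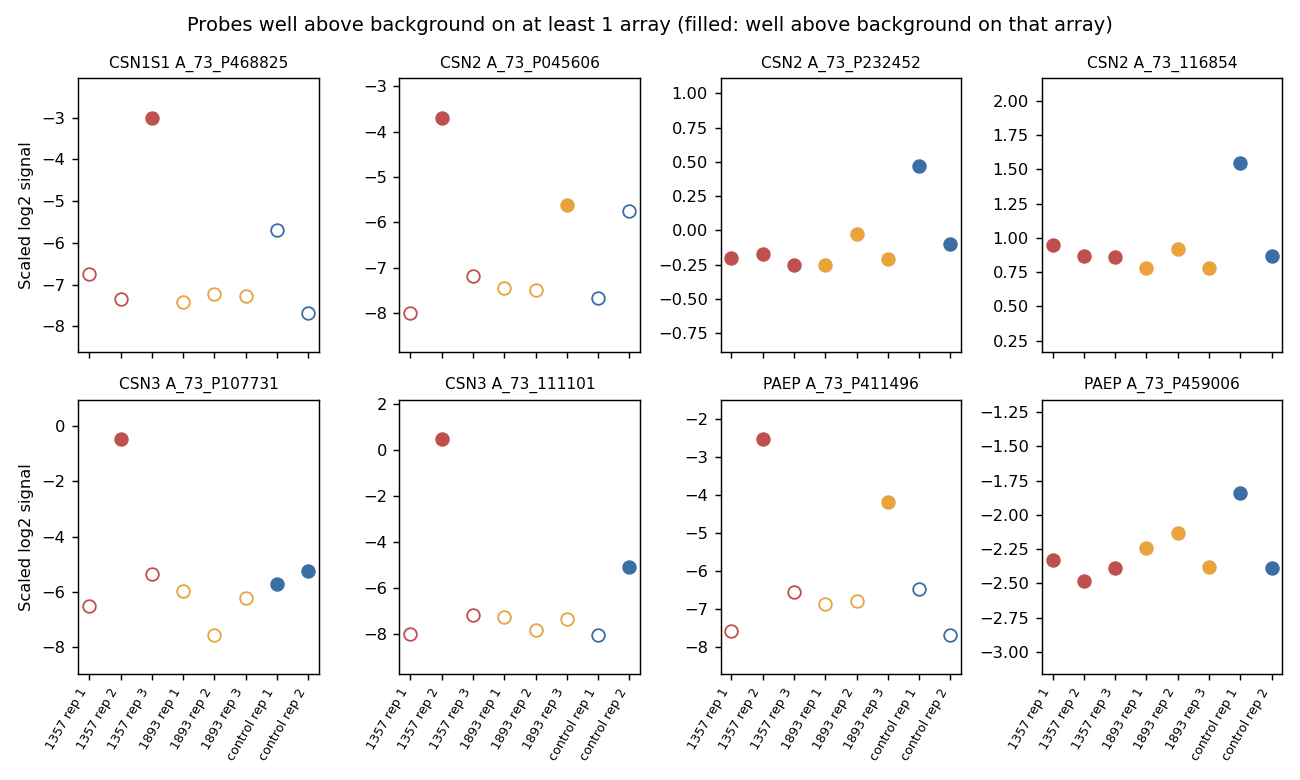
Scaled log2 signal (log2 processed signal minus the array's 75th percentile) of the 8 milk protein probes that were well above background on at least 1 array, 1 panel per probe with its own axis; red is EEF1D-1357, orange EEF1D-1893 and blue control, and filled points are well above background. CSN2 A_73_116854 and A_73_P232452 and PAEP A_73_P459006 are filled on all 8 arrays with control replicate 1 highest, and both CSN3 probes have their highest point on EEF1D-1357 replicate 2.

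Whether cells with an EEF1D hairpin differ from control cells in milk protein mRNA could be tested for 3 of the 7 genes, CSN2, CSN3 and PAEP, those with a probe well above background on at least 2 arrays. None of the 3 passed the threshold (limma, adjusted p under 0.05) in any of the 4 comparisons, and none had an unadjusted p under 0.05. In each comparison 0 of 12892 genes were called (0%). At an unadjusted p under 0.05 the share over all genes was 16.8% for both shRNAs against control, 16.1% for EEF1D-1357, 14.0% for EEF1D-1893 and 6.44% between the shRNAs. Fitted by probe, 0 of the 7 milk protein probes that could be tested were called, as were 0 of 30702 probes.

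For both shRNAs against control, CSN2 had a log2 fold change of -0.35 (SE 0.19, 95% interval -0.79 to 0.08, adjusted p = 0.370), a fitted level 78.2% of control. PAEP stood at -0.21 (SE 0.17, interval -0.61 to 0.19, adjusted p = 0.543). CSN3 stood at 0.14 with an SE of 1.44 (interval -3.26 to 3.54, adjusted p = 0.968), an interval far wider than for the other 2 genes. The CSN2 and PAEP differences rested on control replicate 1: without that array CSN2 was at -0.01 and PAEP at 0.06, and without control replicate 2 they were at -0.69 (adjusted p = 0.0188) and -0.48. The median over all genes tested was -0.07.

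The comparisons of each hairpin with control share the same 2 control arrays. With EEF1D-1357 the log2 fold change of CSN2 was -0.32 (SE 0.21, interval -0.81 to 0.17, adjusted p = 0.448), and with EEF1D-1893 it was -0.39 (SE 0.21, interval -0.88 to 0.10, adjusted p = 0.446). Set directly against each other, EEF1D-1357 was 0.07 above EEF1D-1893 (SE 0.19, interval -0.37 to 0.51, adjusted p = 0.935). All 3 EEF1D-1357 arrays shared a slide with control replicate 2, and all 3 EEF1D-1893 arrays with control replicate 1. With slide as a block, CSN2 was at 0.02 for EEF1D-1357 (adjusted p = 0.955) and at -0.73 for EEF1D-1893 (adjusted p = 0.0280, called), and the difference between the hairpins was 0.75 (SE 0.18, adjusted p = 0.100). The slide and the 1 control array on it cannot be told apart.

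PAEP stood at -0.28 with EEF1D-1357 (SE 0.19, interval -0.73 to 0.16, adjusted p = 0.458) and at -0.14 with EEF1D-1893 (SE 0.19, interval -0.58 to 0.31, adjusted p = 0.783). Between the hairpins the difference was -0.15 (SE 0.17, interval -0.55 to 0.25, adjusted p = 0.827). With slide as a block that difference turned to 0.40 (adjusted p = 0.270). Averaging the gene's probes in place of its brightest one turned PAEP to 0.56 for both shRNAs against control, and that average takes in A_73_P411496, bright on 2 shRNA arrays.

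CSN3 was at 1.37 with EEF1D-1357 (SE 1.61, interval -2.43 to 5.17, adjusted p = 0.670) and at -1.09 with EEF1D-1893 (SE 1.61, interval -4.90 to 2.71, adjusted p = 0.796). The scaled means of A_73_P107731 were -4.11 ± 3.21 (SD, n = 3) with EEF1D-1357, -6.58 ± 0.84 (SD, n = 3) with EEF1D-1893 and -5.48 ± 0.31 (SD, n = 2) in the controls. The probe was not well above background on any EEF1D-1893 array, so only an upper limit holds there. The mean of the controls, both measured, was 1.11-fold above that limit (scaled -5.63). Control replicate 2 (-5.26) lay above the limit and control replicate 1 (-5.70) below it. The EEF1D-1357 mean was 2.87-fold above the limit, with 1 of 3 arrays measured. The other EEF1D-1357 arrays entered at their own signal (-6.51 and -5.34), so 2.87-fold is not a minimum for the group. The fitted log2 difference between the hairpins was 2.47 (interval -0.93 to 5.87, adjusted p = 0.746 in limma). For A_73_111101 the EEF1D-1357 mean was 1.66-fold above the limit, with the same 1 array measured, which is not a minimum either. The mean of the controls did not exceed the limit. The limit sets each EEF1D-1893 array to the lowest signal well above background on it, or to its own signal where that is higher. Both EEF1D-1357 values rest on replicate 2. Without it the fitted log2 difference between the hairpins moved from 2.47 to 0.65. CSN3 then turned to -0.45 for EEF1D-1357 and to -0.77 for both shRNAs against control.

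**Figure D4:**
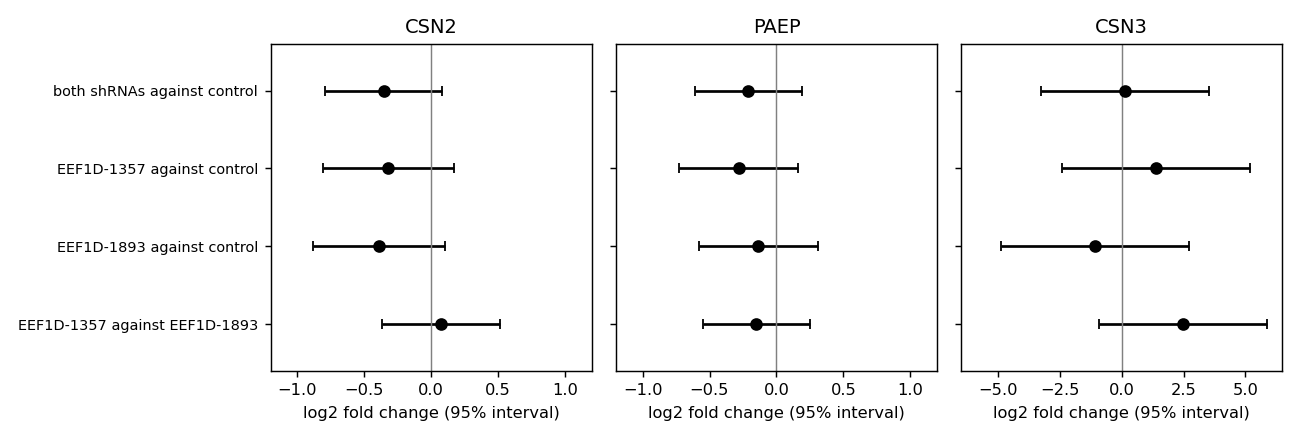
Fitted log2 fold change (points) with its 95% interval (bars) for CSN2, PAEP and CSN3 in the 4 comparisons over 8 arrays; the CSN3 panel has a wider axis. All 12 intervals include 0, and those of CSN3 (such as -3.26 to 3.54) are several times wider than those of CSN2 and PAEP.

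Of 20 other genes on the array whose products go into milk or that lie beside the caseins, 13 (65.0%) were well above background on all 8 arrays, near the 63.1% of all named genes, against 2 of the 7 milk protein genes. The 13 include lactoferrin (LTF), the milk fat globule protein MFGE8, osteopontin (SPP1), xanthine dehydrogenase (XDH) and B4GALT1, the galactosyltransferase that alpha-lactalbumin converts to lactose synthase. Of the casein cluster's neighbours, ODAM and STATH were well above background on 0 arrays. Against control, 0 of the 15 that could be tested were called for both shRNAs together (0% of all genes), 7 lay above 0 and 8 below, and their median was -0.01 against -0.07 over all genes. The 4 with the smallest p were clusterin (CLU) at -0.29 (SE 0.14, adjusted p = 0.342), the fatty acid receptor CD36 (adjusted p = 0.374), the parathyroid hormone-like hormone PTHLH at 0.73 (SE 0.42, adjusted p = 0.402) and the mucin MUC1 at 0.92 (SE 0.65, adjusted p = 0.493). CD36 was well above background on 4 of the 6 shRNA arrays and on neither control. The shRNA mean was 1.69-fold above the controls, with each control set to the lowest signal well above background on it. The other shRNA arrays entered that mean at their own signal, so 1.69-fold is not a minimum for the group. Scaled, EEF1D-1893 replicate 2 stood at -7.36, below both controls (-7.12 and -6.55), and the other shRNA arrays at -5.90 to -2.89. Without control replicate 1, CLU was at -0.13, PTHLH at 0.02 and MUC1 at 2.35, and without control replicate 2 they were at -0.44, 1.44 and -0.51.

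Of the signalling genes that control milk protein transcription, PRLR was well above background on 0 arrays and ELF5, a transcription factor of alveolar cells, on 1, while JAK2, STAT5A, STAT5B and the glucocorticoid receptor gene NR3C1 were on all 8. The growth hormone receptor gene GHR was on 3. In all, 23 of 32 genes of this list (71.9%) were well above background on all 8 arrays, against 63.1% of all named genes. The list had 3 genes (9.38%) that were so on none, against 18.1% of all named genes. For both shRNAs against control, 0 of the 26 tested were called, 12 lay above 0 and 14 below, and the median was -0.08. An unadjusted p under 0.05 was reached by 9 of the 26, against 16.8% of all genes. The smallest p belonged to the nuclear factor NFIB, with scaled values of 1.68, 1.80 and 1.58 with EEF1D-1357, 1.76, 1.57 and 1.92 with EEF1D-1893, and 2.32 and 2.71 in the controls. Both controls lay above all 6 shRNA arrays (groups did not overlap in 16.8% of all genes), at a log2 fold change of -0.80 (SE 0.16, adjusted p = 0.146), and NFIB was at -1.0 without control replicate 1 and -0.60 without control replicate 2. The next were the octamer-binding factor POU2F1 at -0.48 (SE 0.17, adjusted p = 0.239), the factor YY1 at -0.32 (SE 0.11, adjusted p = 0.239) and FKBP5, a co-chaperone of the glucocorticoid receptor, at 0.72 (SE 0.26, adjusted p = 0.254). Without control replicate 1 these 3 were at -0.26, -0.29 and 0.42, and without control replicate 2 at -0.70, -0.35 and 1.01. STAT5A was at -0.51 (SE 0.34, adjusted p = 0.466) and STAT5B at 0.09 (SE 0.23, adjusted p = 0.873). Both signs hung on the controls: STAT5A was at 0.22 without control replicate 1 and -1.25 without replicate 2, and STAT5B at 0.39 and -0.22.

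**Figure D5:**
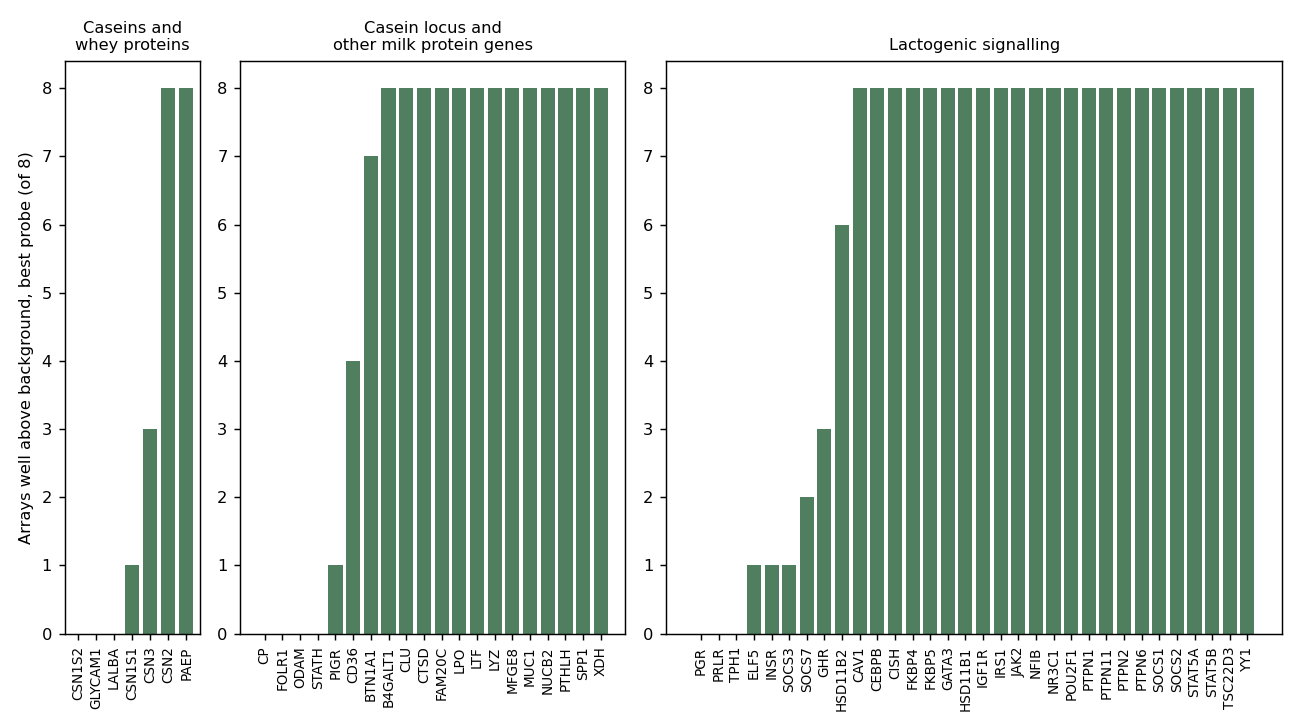
Bars from 0 give the number of arrays, of 8, on which the best probe of each gene was well above background, for the 7 milk protein genes (left), 20 genes of the casein locus and other milk proteins (middle) and 32 genes of lactogenic signalling (right). Among the milk protein genes CSN2 and PAEP reach 8 and CSN1S2, GLYCAM1 and LALBA are at 0, and PRLR is at 0 in the right panel.

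The genes whose scaled signal ran most like that of the bright CSN2 probe over the 8 arrays, among 10900 genes well above background on all of them, were ABCF3 (Pearson r = 0.99), TAF6 (0.98) and HGS (0.98). The points share control replicate 1, and over the other 7 arrays r was 0.75, 0.75 and 0.67. An r over 0.9 with CSN2 was reached by 292 genes (2.68%). For PAEP the nearest were LOC782234 (0.99), ANKRD34A (0.98) and PRKAA1 (0.98), with r of 0.96, 0.94 and 0.94 over the other 7 arrays, and 260 genes (2.39%) were over 0.9. These values describe 8 arrays and carry no test.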

How the data were processed

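Per the file headers, each array's values are Cy3 spot intensity from Agilent Feature Extraction 10.7.3.1 (the submitters' processing notes name version 9.1), background-subtracted and not normalized between arrays. Its flags for well above background and outlier spots are 0 or 1, and 0 spots were saturated. The deposited table of log2 values, with a median of 7.56 in every array, was an alternative source only. Of 43653 probes, 238 with an outlier flag were left out. Probes were named through RefSeq's ARS-UCD2.0 gene table (names only): 26628 by their own accession, 608 by another accession, 6478 by symbol and 161 by an older symbol, while 1458 kept the files' symbol and 8320 had none.

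Each array's log2 intensity was reduced by its 75th percentile. A probe was tested where at least 2 arrays had it well above background (30702 probes), and a gene was represented by its probe of highest mean signal (12892 genes). limma 3.58.1 in R 4.3.3 fitted 1 mean per group to all 8 arrays, with 5 residual and 2.11 prior degrees of freedom, and Benjamini-Hochberg adjustment over all genes; a gene was called at an adjusted p under 0.05, two-sided. The workflow was tested on simulated data. The precision is limited by the 8 arrays.

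Named were all 7 milk protein genes with every probe, EEF1D, up to 4 genes by smallest p of each of the lists of other milk protein genes and lactogenic signalling, and the 3 genes most like each milk protein gene that was well above background on at least 6 arrays; other genes named with their array counts or values were picked after seeing them. The genes and lists were chosen with earlier results of these data known. Alternatives were normexp (offset 50) with quantile, quantile alone or median scaling, other filters, other ways to join probes, the deposited table, another prior, only the groups compared, slide or replicate number as a block, each slide alone, and each array left out.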

Additional observations from a re-analysis of the deposited data

How the results depend on the processing

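No milk protein gene was called under any setting except 2. Without control replicate 2, 1 gene was called for both shRNAs against control (CSN2), 2 for EEF1D-1357 (CSN2 at -0.66, adjusted p = 0.0222, and PAEP at -0.56, adjusted p = 0.0436) and 1 for EEF1D-1893 (CSN2 at -0.73, adjusted p = 0.0280), and 2 probes were called in the fit by probe. With slide as a block, 1 was called for EEF1D-1893 (CSN2). Leaving out each array in turn thus gave 0 to 1, 0 to 2 and 0 to 1 called genes for these 3 comparisons, 0 between the shRNAs, and 0 to 2 probes. Without control replicate 2 the calls over all genes were 2968, 2979 and 1864, against 27, 29 and 26 without control replicate 1. With slide as a block they were 703, 29 and 1864, and 6 between the shRNAs. A trend and robust prior gave 2 for both shRNAs and 2 for EEF1D-1357, a filter on all arrays 3 for EEF1D-1357, and normexp with quantile 1 between the shRNAs, where the main settings gave 0.

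Directions that turned were all among results that did not pass the threshold. Leaving out each array moved CSN2 between -0.69 and -0.01 for both shRNAs, -0.66 and 0.02 for EEF1D-1357, and -0.73 and -0.05 for EEF1D-1893. It moved PAEP between -0.48 and 0.06, -0.56 and -0.01, and -0.41 and 0.14, and CSN3 between -0.77 and 0.74, -0.45 and 2.58, and -1.40 and -0.61. For both shRNAs CSN3 turned without EEF1D-1357 replicate 2 (-0.77), EEF1D-1893 replicate 1 (-0.01) or control replicate 1 (-0.08). CSN2 for EEF1D-1357 turned to 0.02 with slide as a block and without control replicate 1. PAEP turned with the mean of its probes (0.56, 0.62 and 0.50 in the 3 comparisons with control, 0.12 between the shRNAs), with slide as a block between the shRNAs (0.40), and without control replicate 1 (0.06 for both shRNAs and 0.14 for EEF1D-1893). On slide 1 alone CSN2 and PAEP stood at 0.02 and -0.01, and on slide 2 alone at -0.73 and -0.41. EEF1D ran from -1.38 (adjusted p = 0.0380, without control replicate 2) to -0.40. The causes were not tested.

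With a replicate block, CSN2 for both shRNAs was at -0.34, PAEP at -0.18 and CSN3 at 0.36, and 0 milk protein genes were called in the 4 comparisons. Deviations from the group mean correlated between -0.10 and 0.14 for same-numbered arrays and between -0.14 and 0.06 for differently numbered ones. The deviations of the 2 controls are exact opposites, so values with one mirror those with the other. The ranges overlapped, and the numbers were not taken to pair the arrays.

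Signal over background is the main limit. For 4 of the 7 genes no comparison was possible, and CSN3 was measured on 3 arrays. CSN2 was measured on all 8 only by 2 overlapping probes, at transcript positions 742 to 801 and 749 to 808. PAEP was measured on all 8 only by 1 probe, at the transcript's end. The comparisons with control rest on 2 control arrays, 1 on each slide.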

Other observations

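CSN3 was well above background on 3 arrays, and the genes that ran most like it were looked up after its values were seen. Among the 12891 other genes tested, CASP14 (Pearson r = 0.95), ZNF672 (0.94) and BMT2 (0.94) were nearest over 8 arrays, and 13 genes (0.101%) had an r over 0.9. CASP14, a caspase of differentiating keratinocytes, had scaled values of -1.13 on EEF1D-1357 replicate 2 and -7.25 to -5.15 on the other 7 arrays. Without EEF1D-1357 replicate 2, r was 0.50, 0.49 and 0.67 over 7 arrays.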
